A study of Mus musculus with 52 samples.

Results

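Mouse CD8+ T cells activated by beads and grown for 7 days in wells coated with CCL21 and ICAM1 were compared with the same kind of cells from uncoated wells. All libraries whose titles name day 7, beads and a coating state were taken, which gave 4 coated libraries (M numbers 1, 2, 3 and 5) and 5 uncoated ones (M numbers 1 to 5), 9 of the 52 libraries of the series. The labels do not say what an M number stands for, and no label names separate animals or cultures. The p-values therefore reflect how far these libraries spread, which may be technical. The comparison is described across the 8696 of 14626 genes that passed a filter on low counts.

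Both groups hold naive CD8+ T cells isolated magnetically from spleens of OT-I mice, which carry a transgenic T cell receptor for an ovalbumin peptide. They were activated by microbeads bearing antibodies against CD3 and CD28, with interleukin 2, in 96-well plates, and differ only in the well surface, uncoated or coated beforehand with the 2 proteins together. The labels give the 2 coating proteins together, as 1 surface, so nothing here separates one from the other. RNA was measured by bulk MARS-seq, which reads the 3′ ends of transcripts. For comparison, bead-activated cells at day 3 (5 coated and 3 uncoated libraries) and cells activated by peptide-loaded dendritic cells (DCs) of C57BL/6 mice at day 4 (5 and 5, with 120 in their titles, which the labels do not explain) are used, together with 9 libraries of freshly isolated cells (day 0). The series asks how the coating bears on proliferation and killing by T cells after either kind of activation.

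CCL21 is a chemokine of lymph nodes that binds the receptor CCR7 and guides T cells, and ICAM1 is the ligand of the integrin LFA-1, which holds T cells to other cells. A T cell whose receptor and costimulatory receptors are engaged induces immediate early genes, divides quickly, and builds ribosomes and cytotoxic granules. BH3-only proteins start the death of lymphocytes that lack survival signals, and resting lymphocytes hold inhibitors of growth signalling and of Myc.

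On the coating, transcripts of the zinc-binding metallothioneins Mt1 and Mt2, of the BH3-only death genes Bbc3 and Bcl2l11, of the stress genes Ddit3, Trib3 and Ddit4, of the early response genes Zfp36 and Junb and of the chemokine Ccl5 were lower. The glutathione synthesis gene Gclm, the granzyme Gzmm, the chromatin remodeller Hells and the histone chaperone Asf1b were higher. In 9 fits that each left out 1 library, Gzmm, Hells and Ddit4 lost their call in 7 and Ddit3 and Asf1b in 6. Of 8696 genes tested, 155 were called at an adjusted p under 0.05 (edgeR's quasi-likelihood test with Benjamini-Hochberg adjustment), which is 1.78% of them. Of these, 32 were higher on the coating (0.368%) and 123 lower (1.41%). A change of 2-fold or more was reached by 79 called genes (0.908% of those tested), 10 higher (0.115%) and 69 lower (0.793%). Among the called genes, the values of both groups did not overlap in 151 (1.74% of those tested), 31 of the higher (0.356%) and 120 of the lower ones (1.38%). Over all genes tested, the groups did not overlap in 858 (9.87%), 432 higher (4.97%) and 426 lower (4.9%). At an unadjusted p under 0.05 there were 1957 genes (22.5%), 930 higher (10.7%) and 1027 lower (11.8%). DESeq2 called 577 (6.64%), 225 higher (2.59%) and 352 lower (4.05%). The median log2 fold change over all genes was -0.0053, with 49.4% of genes positive and 50.6% negative.

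**Figure D1:**
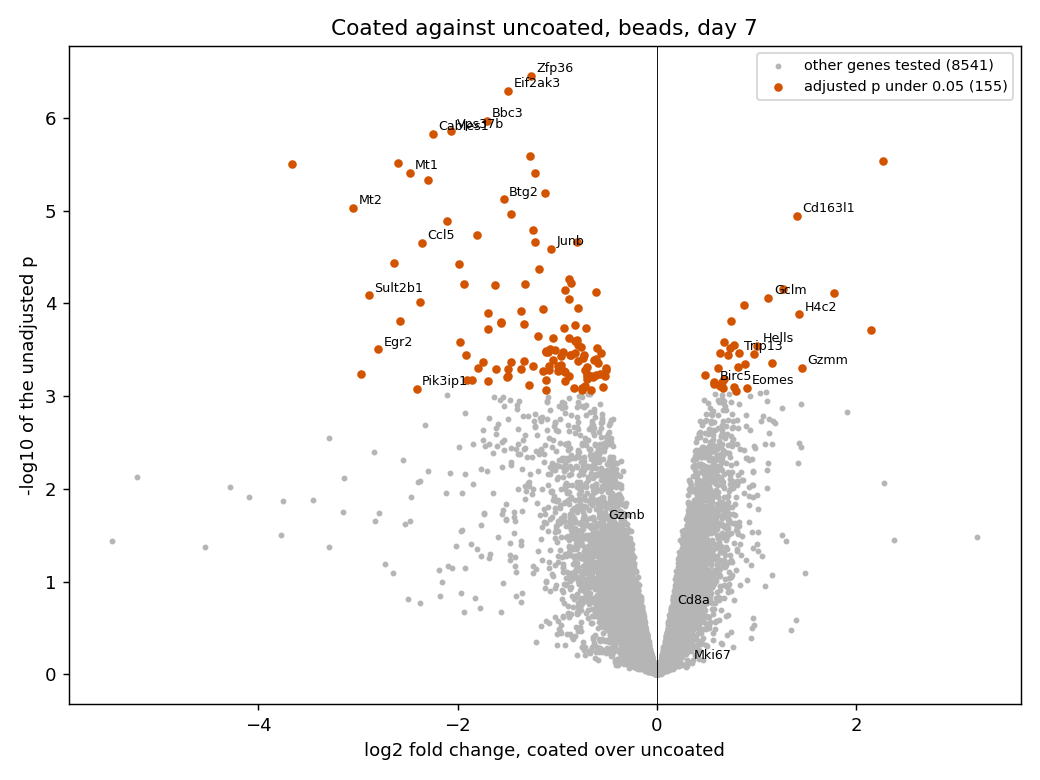
Each point is 1 of the 8696 genes tested, with the log2 fold change of coated over uncoated cells on the x axis and -log10 of the unadjusted p on the y axis. The 155 genes with an adjusted p under 0.05 are in orange, and 123 of them lie to the left of 0.

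The number of called genes rested on single libraries. It ran from 22 without coated M number 5 to 786 without uncoated M number 1, with 27, 31 and 47 without coated M numbers 1, 2 and 3, 554 without uncoated M number 2, and 41, 63 and 39 without uncoated M numbers 3, 4 and 5. In each of these 9 fits at least 154 of the 155 genes had the same sign. The groups did not overlap in 151 of the 155, so leaving out a library could hardly change their sign, and the kept signs are no test of stability. In the authors' deposited table of the same comparison, 850 genes had an adjusted p under 0.05, 351 higher and 499 lower, and 141 of the 155 genes called here were among them with the same direction. The values below are CPM, counts scaled to library size with TMM factors, in the order of the M numbers, and fold changes are log2, coated over uncoated, ± SE. "Fell" and "rose" are used only of called genes. The counts of list members that fell or rose stand beside shares over all genes tested of 1.41% that fell and 0.368% that rose.

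Libraries of the same group stood apart from each other. Totals were 1374720 to 2785011 counts. In a principal component analysis of 1000 variable genes the leading component held 48.2% of the variance and spread the libraries of both groups. Coated M numbers 1 and 2 and uncoated M numbers 2 and 4 had 17.1 to 53.8 CPM of Rpl5, a ribosomal protein gene. The other 5 libraries had 195 to 1076 CPM. These sets are by Rpl5. On the leading component uncoated M number 4 (-4.48) and coated M number 5 (-0.29) lay next to each other, without a gap between the sets. The next component held 24.6%. Uncoated M numbers 3 and 4 also held transcripts of other cells: Hbb-bs, a haemoglobin chain, was at 328 and 595 CPM there and at 4.79 to 8.82 CPM elsewhere, and Cd74, of MHC class II cells, at 53.5 and 127 CPM against 2.54 to 5.52 CPM. Leaving both libraries out left 37 called genes (5 higher and 32 lower), and 32 of the 155 remained among them. The sign was the same in 154 of the 155, which groups that do not overlap largely fix in advance. With the set of libraries by Rpl5 as a covariate, 257 genes were called and 154 of the 155 remained among them. All 12 markers of CD8 T cells were detected, with Cd8a at 298, 302, 349 and 337 CPM on the coating and 303, 249, 303, 297 and 297 CPM without it. Cd8a was the 1 marker with a positive change. The other 11 were negative, the median log2 change was -0.23 and none was called. Cd3d ran from 24.7 to 372 CPM on the coating and from 23.9 to 497 CPM without it.

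**Figure D2:**
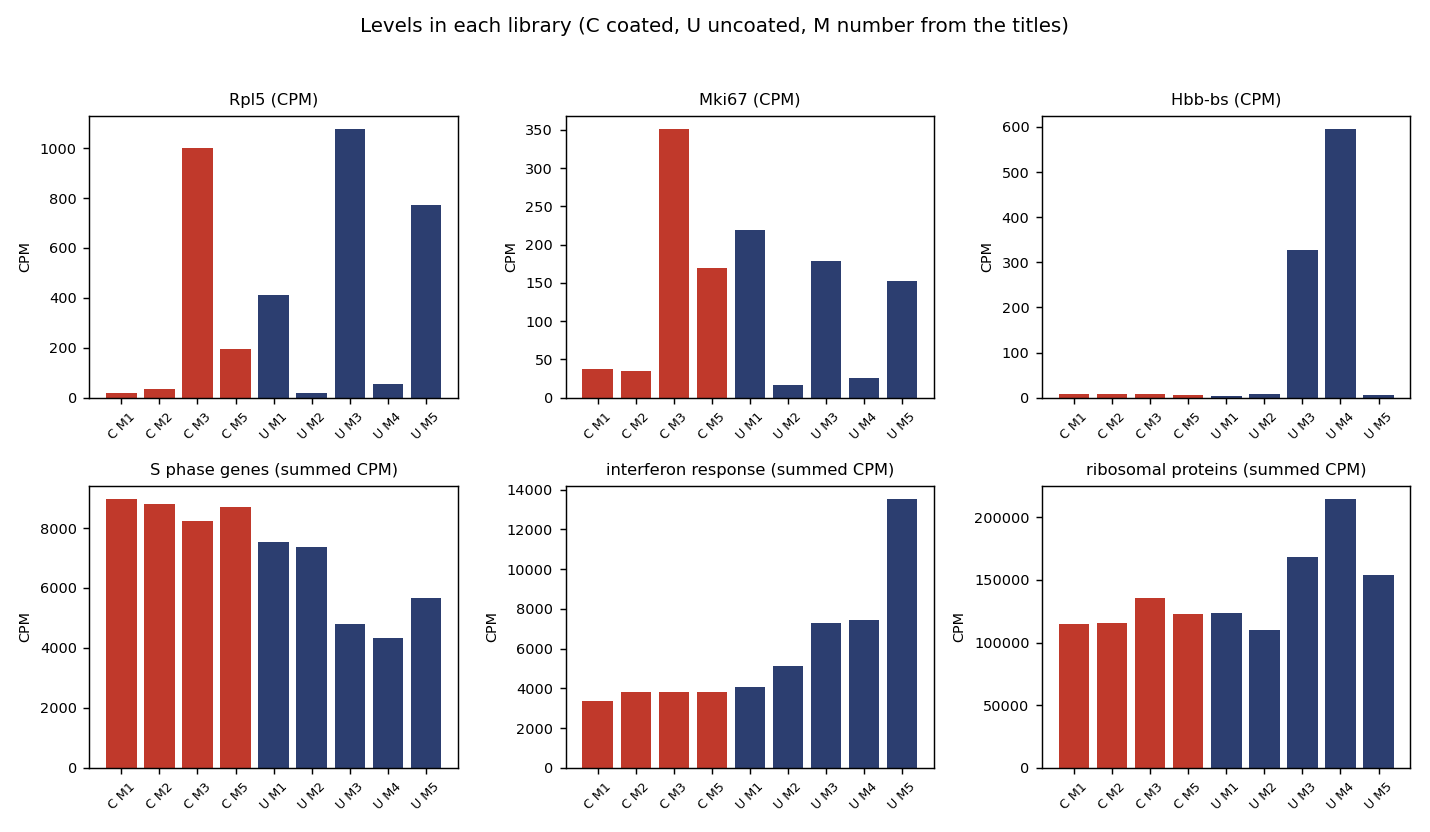
Bars give the CPM of a gene, or the CPM summed over the genes of a list, in each of the 9 libraries (red coated, blue uncoated, M number on the x axis). Rpl5 and Mki67 divide the libraries within both groups, Hbb-bs stands out in uncoated M numbers 3 and 4, and the summed S phase level is higher in each coated library than in any uncoated one.

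The metallothionein genes Mt1 and Mt2, neighbours on chromosome 8 that encode small cysteine-rich proteins binding zinc and copper, both fell. They are transcribed in response to zinc through the factor MTF1, which binds metal response elements. Of the 250 bases before each gene's start in RefSeq (GRCm38.p6, plus strand), matches to the element's core, TGCACNC or TGCGCNC on either strand, are in capitals. They are shown because both genes fell together, and Gclm, printed after them with matches to the antioxidant response element TGACNNNGC in capitals, because it changed the other way. The windows are chr8:94178839-94179088, chr8:94172368-94172617 and chr3:122245307-122245556.
Mt1: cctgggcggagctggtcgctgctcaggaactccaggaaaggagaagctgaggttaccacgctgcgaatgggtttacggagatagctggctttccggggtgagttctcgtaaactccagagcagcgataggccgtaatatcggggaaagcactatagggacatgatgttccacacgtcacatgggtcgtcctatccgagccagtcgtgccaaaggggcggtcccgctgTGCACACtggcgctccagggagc
Mt2: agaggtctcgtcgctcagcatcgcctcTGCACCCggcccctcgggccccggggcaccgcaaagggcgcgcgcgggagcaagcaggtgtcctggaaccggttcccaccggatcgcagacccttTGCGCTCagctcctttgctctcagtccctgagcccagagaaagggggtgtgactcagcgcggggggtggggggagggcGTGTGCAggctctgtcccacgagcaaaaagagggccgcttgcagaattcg
Gclm: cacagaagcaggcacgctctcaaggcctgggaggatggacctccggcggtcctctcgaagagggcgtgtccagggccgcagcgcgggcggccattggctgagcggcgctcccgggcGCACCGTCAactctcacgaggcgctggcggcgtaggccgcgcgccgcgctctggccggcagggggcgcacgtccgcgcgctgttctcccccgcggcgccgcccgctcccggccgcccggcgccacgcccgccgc
The window of Mt1 held 1 match to the metal response core, starting 23 bases before the gene's start. That of Mt2 held 3, starting 223, 128 and 50 bases before it, and that of Gclm 1 match to the antioxidant core, 134 bases before. Of 32851 such windows in the table, 21.4% held at least 1 metal response core and 10.2% at least 1 antioxidant core. Each window was searched for 1 element only, so letters that match the other element are not in capitals. The Mt2 window also holds tgactcagc, an antioxidant core, and the Gclm window gggcgca, a metal response core on the other strand. The capitals therefore do not separate the genes that fell from the one that rose. Matches describe the letters only. No binding was measured here.

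Mt1 (chr8:94179082-94180327, GRCm38, plus strand) was at 24.2, 40.6, 40.4 and 56.4 CPM in the coated libraries and at 133, 220.0, 204, 328 and 249 CPM in the uncoated ones. The lowest uncoated library was well above the highest coated one, so the groups did not overlap. Its log2 fold change was -2.48 ± 0.29 (SE), with an adjusted p of 0.00311. Mt2 (chr8:94172664-94173568, GRCm38, plus strand) was at 12.1, 14, 22 and 21.1 CPM against 73.1, 141, 101, 237 and 172 CPM, again without overlap (log2 -3.05 ± 0.37, adjusted p = 0.00544). Uncoated M number 4 was the highest library and M number 1 the lowest of the uncoated ones for both genes. The sequences of the 2 transcripts are alike, so that counting may have split reads between them; both moved the same way. Without uncoated M numbers 3 and 4 the log2 change was -2.32 ± 0.30 for Mt1 (adjusted p = 0.0271) and -2.90 ± 0.33 for Mt2 (0.0191).

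The rest of the metal and antioxidant list went the other way or did not pass the test. Of 24 genes tested, 2 rose and 2 fell, with 12 positive changes and a median of 0.03. Gclm (chr3:122245557-122270732), the regulatory subunit of the enzyme that starts glutathione synthesis, was at 289, 299.8, 173 and 263 CPM on the coating and 116, 141, 107, 148 and 80.2 CPM without it. Every coated library was above every uncoated one, and the log2 change was 1.12 ± 0.20 (adjusted p = 0.02). Without uncoated M numbers 3 and 4 it was 1.18 with an adjusted p of 0.0808. Txnrd1, the cytosolic thioredoxin reductase, rose by 0.67 ± 0.15 (390.4 ± 71.8 against 245 ± 36.8 CPM, mean ± SD with n = 4 and 5, adjusted p = 0.0433 in edgeR). The mitochondrial superoxide dismutase Sod2 was at log2 0.43 ± 0.11 with an adjusted p of 0.0644, and Gsr, glutathione reductase, at 0.60 ± 0.18 (0.0891), neither called.

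Bbc3, which encodes the BH3-only protein PUMA, was at 23.5, 31.8, 30.3 and 33.3 CPM in coated and 79, 66.9, 110.2, 119.9 and 111 CPM in uncoated libraries. All coated libraries were below all uncoated ones, and the coated ones lay close together (log2 -1.71 ± 0.20, adjusted p = 0.0026). Bcl2l11, encoding the BH3-only protein BIM, fell (log2 -1.32 ± 0.22, 83.7 ± 18.1 against 209 ± 61.2 CPM, adjusted p = 0.0172 in edgeR; without uncoated M numbers 3 and 4, -1.22 with an adjusted p of 0.111). Of 21 tested genes of the BCL2 family and cell death, these 2 fell and none rose (9 positive changes, median -0.09). The antiapoptotic Bcl2 was at -0.49 ± 0.26 (0.295) and Mcl1 at -0.34 ± 0.15 (0.199), not called. Bbc3 was also the one called gene of 17 p53 targets tested, of which 3 were positive and the median was -0.39; the cell cycle inhibitor Cdkn1a was at -0.93 ± 0.22 (adjusted p = 0.0556).

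Among 28 genes of the amino acid and integrated stress response, 3 fell and none rose, with 12 positive changes and a median of -0.11 (edgeR; DESeq2 called 1 higher and 7 lower, and 1 was higher and 10 lower at an unadjusted p under 0.05). The 3 that fell in edgeR were Ddit3, Trib3 and Ddit4. Ddit3 encodes the stress transcription factor CHOP and was at 42, 36.2, 36.2 and 30.1 CPM on the coating against 65.6, 80.6, 118, 124 and 194 CPM without it. Uncoated M number 5 was the highest, and all uncoated libraries were above all coated ones (log2 -1.69 ± 0.29, adjusted p = 0.0248). Without uncoated M numbers 3 and 4 none of the 28 was called, and Ddit3 was at -1.68 with an adjusted p of 0.157. Trib3, a pseudokinase induced by CHOP, had a log2 change of -1.49 ± 0.31 (adjusted p = 0.0415), and Ddit4, which encodes an inhibitor of the growth kinase mTORC1, one of -1.24 ± 0.26 (34.9 ± 10.7 against 82.2 ± 26.8 CPM, adjusted p = 0.0399 in edgeR). Outside that list, Eif2ak3, the stress kinase PERK that phosphorylates the initiation factor eIF2 alpha, was at 29.2, 33, 29.7 and 21.1 CPM against 72.5, 88, 88.1, 66.9 and 82.4 CPM. It had the smallest adjusted p of all genes together with Zfp36 (0.00221; log2 -1.49 ± 0.16). Ppp1r15a, which undoes that phosphorylation, fell (log2 -1.09 ± 0.23, adjusted p = 0.0367). Chaperones and other genes of the unfolded protein response were mostly positive: of 22 tested none was called, 18 were positive and the median was 0.31, with Calr at 1019.6 ± 122 against 649 ± 127 CPM (log2 0.65 ± 0.15, adjusted p = 0.0542; unadjusted p under 0.05 in 9 genes higher and 0 lower, 3 higher by DESeq2).

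Several immediate early and activation genes fell, but not all. The immediate early genes Fos and Jun were not called, and their groups overlapped. Fos was at 5.08 to 21.2 CPM on the coating and 14.4 to 31.3 CPM without it, and Jun at 26.5 to 45.9 and 31.4 to 91.8 CPM. Zfp36, which encodes the RNA-destabilising protein tristetraprolin, was at 49.8, 51.4, 69.5 and 53.8 CPM in the coated libraries and 139, 144, 142, 134 and 120.1 CPM in the uncoated ones. Values were close within each group and did not overlap between them (log2 -1.27 ± 0.13, adjusted p = 0.00221). Junb, a subunit of the AP-1 transcription factor, was at 144, 149.9, 175 and 110.2 CPM against 272, 403, 260.0, 272 and 303 CPM. Its highest uncoated library was M number 2 and the groups did not overlap (log2 -1.06 ± 0.17, adjusted p = 0.00941). Ier2, another immediate early gene, fell (log2 -1.24 ± 0.19, adjusted p = 0.00744). Of 25 tested activation and costimulation genes, 4 fell and none rose, 24 were negative and the median log2 change was -0.65. Besides Junb these were Tnfrsf18, the costimulatory receptor GITR (-0.71 ± 0.14, adjusted p = 0.0294), Dusp4, a phosphatase of MAP kinases (-0.83 ± 0.19, 0.0479), and Egr2, a transcription factor induced by the T cell receptor (-2.79 ± 0.57, 0.0367). Egr2 was at 1.42, 0, 3.56 and 2.56 CPM on the coating, with 1 library at 0, and at 11.3, 23.5, 6.92, 8.97 and 17.2 CPM without it. Its relative Egr1 was at 9.25, 10.8, 56.4 and 9.61 against 229, 343, 161, 59.5 and 279 CPM, with an adjusted p of 0.0742, not called.

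**Figure D3:**
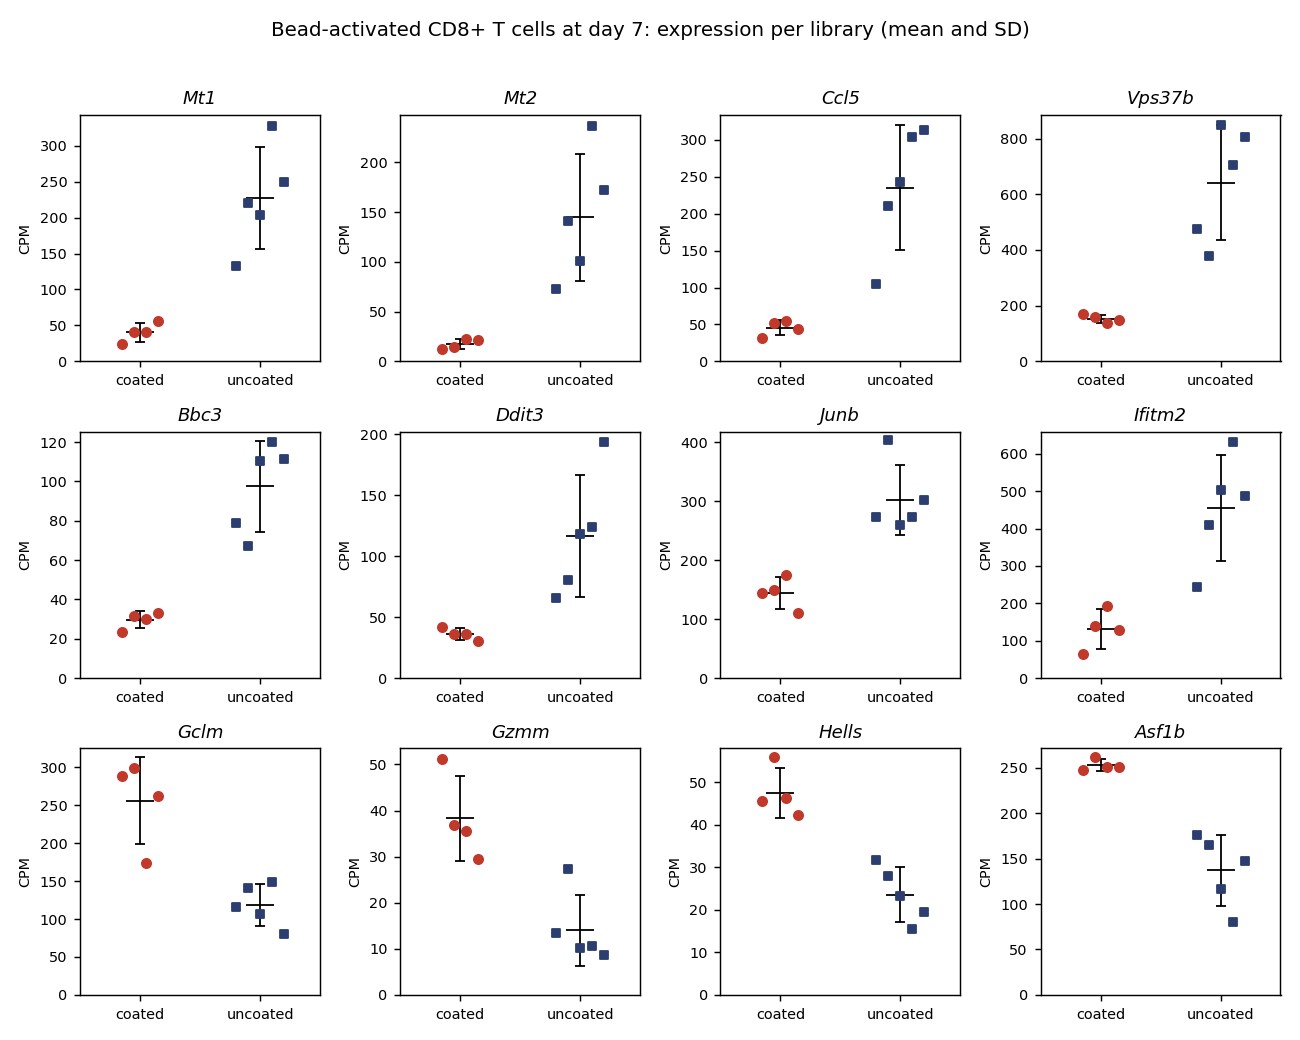
Expression in CPM (y axis, starting at 0) of 12 genes in the 4 coated (red circles) and 5 uncoated (blue squares) libraries; black bars are the mean and SD. Mt1, Mt2, Ccl5, Vps37b, Bbc3, Ddit3, Junb and Ifitm2 are lower and Gclm, Gzmm, Hells and Asf1b higher in every coated library than in any uncoated one.

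Few receptor signalling genes passed the test. Of 35 genes of T cell receptor signalling tested, 1 fell, Sla2, an adaptor that dampens signals of the T cell receptor (21.2 ± 1.12 against 43.2 ± 11.3 CPM, log2 -1.03 ± 0.21, adjusted p = 0.0367 in edgeR); none rose and 11 were positive. Il4ra, the interleukin 4 receptor, was the one called gene of 27 cytokine receptor and signalling genes (log2 -0.70 ± 0.15, adjusted p = 0.0399). Il2ra, whose product gives the interleukin 2 receptor high affinity, was at 45.6, 29.9, 66.5 and 69.8 CPM against 87.6, 45.9, 74.9, 59.5 and 105 CPM, with overlapping groups (log2 -0.50 ± 0.28, adjusted p = 0.321). Interleukin 2 was supplied in the medium of both groups.

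Ccl5, a chemokine of effector and memory T cells, fell. It was at 32, 52.1, 55.3 and 43.6 CPM on the coating and at 105, 210.1, 244, 303 and 314 CPM without it, and uncoated M number 1 was the lowest of its group yet above all coated libraries (log2 -2.36 ± 0.32, adjusted p = 0.00844; without uncoated M numbers 3 and 4, -2.21 with an adjusted p of 0.109). It was the one gene called by edgeR among 13 tested cytokine and chemokine genes (4 positive, median -0.16), of which DESeq2 called 2 higher and 3 lower. Ccl3 and Ccl4, the chemokines MIP-1 alpha and beta, were at log2 -1.54 ± 0.37 and -1.59 ± 0.38 with adjusted p-values of 0.0573 and 0.0659. Lta, lymphotoxin alpha, had the opposite sign, with 339.5, 339.8, 341 and 400.4 CPM on the coating and 239.7, 216, 78.7, 126 and 131 CPM without it (log2 1.16 ± 0.28, adjusted p = 0.0644). None of these 3 was called by edgeR, although the groups did not overlap in any of them. DESeq2 called all 3, with adjusted p-values of 0.00336 for Ccl3, 0.00063 for Ccl4 and 0.00149 for Lta.

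Few genes of killing passed the test. Of 16 tested genes of cytotoxic granules and death ligands 1 rose and none fell (5 positive, median -0.28). The one was Gzmm, granzyme M, at 51.2, 36.8, 35.6 and 29.5 CPM in coated and 13.4, 27.3, 10.1, 10.6 and 8.58 CPM in uncoated cells, where M number 2 came close to the lowest coated library (log2 1.46 ± 0.31, adjusted p = 0.0399; without uncoated M numbers 3 and 4, 1.25 with an adjusted p of 0.194). Gzmb, granzyme B, the most abundant of them, was at 2174, 2790.1, 3077 and 3039.9 CPM against 3571, 3887, 2904, 3544 and 6295 CPM, with overlapping groups and the highest value in uncoated M number 5 (log2 -0.54 ± 0.21, adjusted p = 0.159). The pore-forming protein gene Prf1 was at 62.7 ± 8.04 against 67.1 ± 27 CPM (log2 -0.10 ± 0.24, adjusted p = 0.836 in edgeR) and Ifng, interferon gamma, at 11.6 ± 1.03 against 11.6 ± 6.42 CPM (log2 -0.04 ± 0.36, adjusted p = 0.966 in edgeR). The sign of Prf1 and Ifng changed with the libraries used.

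Transcription factors of effector cells went both ways. Of 22 tested, 1 rose and 2 fell. Eomes, a T-box factor of memory and effector CD8+ T cells, was at 574, 487, 425 and 661 CPM against 282, 439, 222, 271 and 223 CPM; uncoated M number 2 overlapped with the coated libraries (log2 0.90 ± 0.20, adjusted p = 0.0479; without uncoated M numbers 3 and 4, 0.76 with an adjusted p of 0.229). Hif1a, the oxygen-regulated factor, fell (log2 -0.93 ± 0.16, 82.7 ± 15.3 against 157 ± 25.2 CPM, adjusted p = 0.0184 in edgeR; without uncoated M numbers 3 and 4, -0.89 with an adjusted p of 0.0918), and so did Bhlhe40, a repressor of activated cells (log2 -0.63 ± 0.13, adjusted p = 0.0387). Tbx21, the T-box factor of effector cells, was at 0.28 ± 0.34 (0.657), and Prdm1, the effector factor BLIMP1, at -1.05 ± 0.31 (0.0878), neither called; the sign of Tbx21 changed with the libraries used. Among 20 tested genes of the hypoxia response 2 fell, Bhlhe40 and Ddit4, with a median log2 change of -0.50, and of 22 glycolytic genes none was called (median -0.06; unadjusted p under 0.05 in 0 higher and 5 lower, 0 and 4 by DESeq2).

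Naive and memory genes were mostly negative without passing the test: of 23, 1 fell, none rose, 3 were positive and the median was -0.37. The called one was Btg2, an antiproliferative gene of resting lymphocytes, at 8.54, 8.26, 11.3 and 8.33 CPM against 21.5, 24.2, 31.5, 25.3 and 30.6 CPM, without overlap (log2 -1.54 ± 0.21, adjusted p = 0.00467). Tcf7, the factor TCF1 of naive and memory cells, was at 164, 134, 471, 505 and 238 CPM in uncoated cells, where M numbers 3 and 4 were the highest, and at 236, 254, 229.9 and 211 CPM on the coating (log2 -0.37 ± 0.41, adjusted p = 0.631; without M numbers 3 and 4, 0.36 with an adjusted p of 0.43). Il7r and Pdcd1, the interleukin 7 receptor and the inhibitory receptor PD-1, had 37 and 66 counts over all 9 libraries and were not tested.

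No change of the receptors for the coating proteins was detectable with these libraries. Ccr7, which binds CCL21, was at 150.2, 145, 123 and 152 CPM on the coating and 135, 148, 274, 286 and 177 CPM without it, highest in uncoated M numbers 3 and 4 (log2 -0.51 ± 0.22, adjusted p = 0.202). The 2 chains of LFA-1, which binds ICAM1, were at log2 0.23 ± 0.15 for Itgal (adjusted p = 0.393) and 0.05 ± 0.13 for Itgb2 (0.844; without uncoated M numbers 3 and 4, -0.06 with an adjusted p of 0.874). Icam1 itself was at 50.0 ± 2.94 against 60.7 ± 12.8 CPM (log2 -0.28 ± 0.16, adjusted p = 0.338 in edgeR). The integrin beta 3 chain Itgb3, of the vitronectin receptor, was the 1 called gene of 38 integrin and adhesion genes, at 73.3, 56.5, 91.5 and 66 CPM against 147, 108, 291, 254 and 299 CPM (log2 -1.61 ± 0.32, adjusted p = 0.0399; without uncoated M numbers 3 and 4, -1.39 with an adjusted p of 0.213). Of 30 chemokine receptor and migration genes none was called (9 positive, median -0.10; unadjusted p under 0.05 in 1 higher and 6 lower, 0 and 2 by DESeq2).

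Nearly all genes of DNA replication had positive changes, and none passed edgeR's test. Of 45 tested S phase genes, 44 were positive with a median log2 change of 0.53; none was called by edgeR, 33 had an unadjusted p under 0.05 (all higher) and 11 were called higher by DESeq2. The CPM summed over the list was 8963, 8810.2, 8244 and 8686 in the coated libraries and 7539.9, 7352, 4788, 4324 and 5666 in the uncoated ones. Every coated library was above every uncoated one, and uncoated M numbers 3 and 4, which hold RNA of other cells, were the lowest. Without them the median was 0.31 with 43 of 45 positive. The ribonucleotide reductase subunit Rrm2 was at 408 ± 17.4 against 239.8 ± 71.8 CPM (log2 0.76 ± 0.20, adjusted p = 0.0676 in edgeR) and the helicase subunit Mcm5 at 536 ± 63.8 against 342 ± 91.9 CPM (0.65 ± 0.18, 0.079 in edgeR). In bulk RNA, a larger share of dividing cells and more RNA of these genes in each cell cannot be told apart.

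Some chromatin assembly and histone genes outside that list passed the test. They are named because they were called, not as a list set beforehand. Hells, a chromatin remodelling helicase of dividing lymphocytes, was at 45.6, 55.9, 46.3 and 42.3 CPM on the coating against 31.7, 27.9, 23.3, 15.5 and 19.4 CPM (log2 1.01 ± 0.20, adjusted p = 0.0367; without uncoated M numbers 3 and 4, 0.85 with an adjusted p of 0.123). Asf1b, a histone chaperone of replication, was at 248, 262, 251 and 251 CPM against 176, 165, 116, 79.9 and 148 CPM. Its coated libraries lay close together while the uncoated ones spread from 79.9 to 176 CPM (log2 0.88 ± 0.19, adjusted p = 0.0399; without uncoated M numbers 3 and 4, 0.62 with an adjusted p of 0.0392). The histone genes H4c2 and H2bc11 rose by 1.43 ± 0.27 (adjusted p = 0.0248) and 1.27 ± 0.22 (0.0184), while H3c1, at 1.18 (adjusted p = 0.0649 in edgeR), was not called. Their transcripts, like those of other replication-dependent histones, belong to families of near-identical copies, so that the split of reads among copies is uncertain.

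Of 46 tested genes of G2 and M phase, 1 rose, 45 were positive and the median was 0.39 (0.22 without uncoated M numbers 3 and 4). The 1 was Birc5, the mitotic protein survivin, at 316, 361, 313 and 308 CPM against 248, 229, 217, 162 and 230.1 CPM (log2 0.58 ± 0.13, adjusted p = 0.0455). Trip13, an ATPase of the spindle checkpoint, rose by 0.82 ± 0.17 (adjusted p = 0.0367). Mki67, the proliferation marker, was at 37, 34.9, 351 and 169 CPM against 219, 16.7, 178, 26.1 and 153 CPM. It was low in the same 4 libraries as Rpl5, and its sign changed with the libraries used (log2 0.31 ± 0.97, adjusted p = 0.885). Of 20 cyclins, kinases and inhibitors of G1 none was called (10 positive; unadjusted p under 0.05 in 4 higher and 3 lower, 0 and 3 by DESeq2).

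Ribosome biogenesis and ribosomal proteins had opposite signs. Of 37 genes of ribosome biogenesis and Myc targets 36 were positive with a median of 0.47, and of 55 ribosomal protein genes 54 were negative with a median of -0.35; none of either list was called (20 higher and 1 lower, and 0 higher and 8 lower, at an unadjusted p under 0.05; 4 higher and 1 lower, and none, by DESeq2). Ribosomal proteins summed to 114996, 115827, 135900.0 and 122493 CPM on the coating and 123864, 110190.0, 168532, 214552 and 153653 CPM without it, highest in uncoated M numbers 3 and 4. Without those 2 libraries their median was -0.10 with 12 of 55 positive, and that of ribosome biogenesis 0.28. The purine synthesis enzyme Atic rose by 0.80 ± 0.18 (267 ± 34.6 against 154 ± 44 CPM, adjusted p = 0.0497 in edgeR). Tuba4a, an alpha tubulin, rose by 0.62 ± 0.13 (adjusted p = 0.0399) as the 1 called gene of 28 tubulin and actin genes (21 positive, median 0.22).

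**Figure D4:**
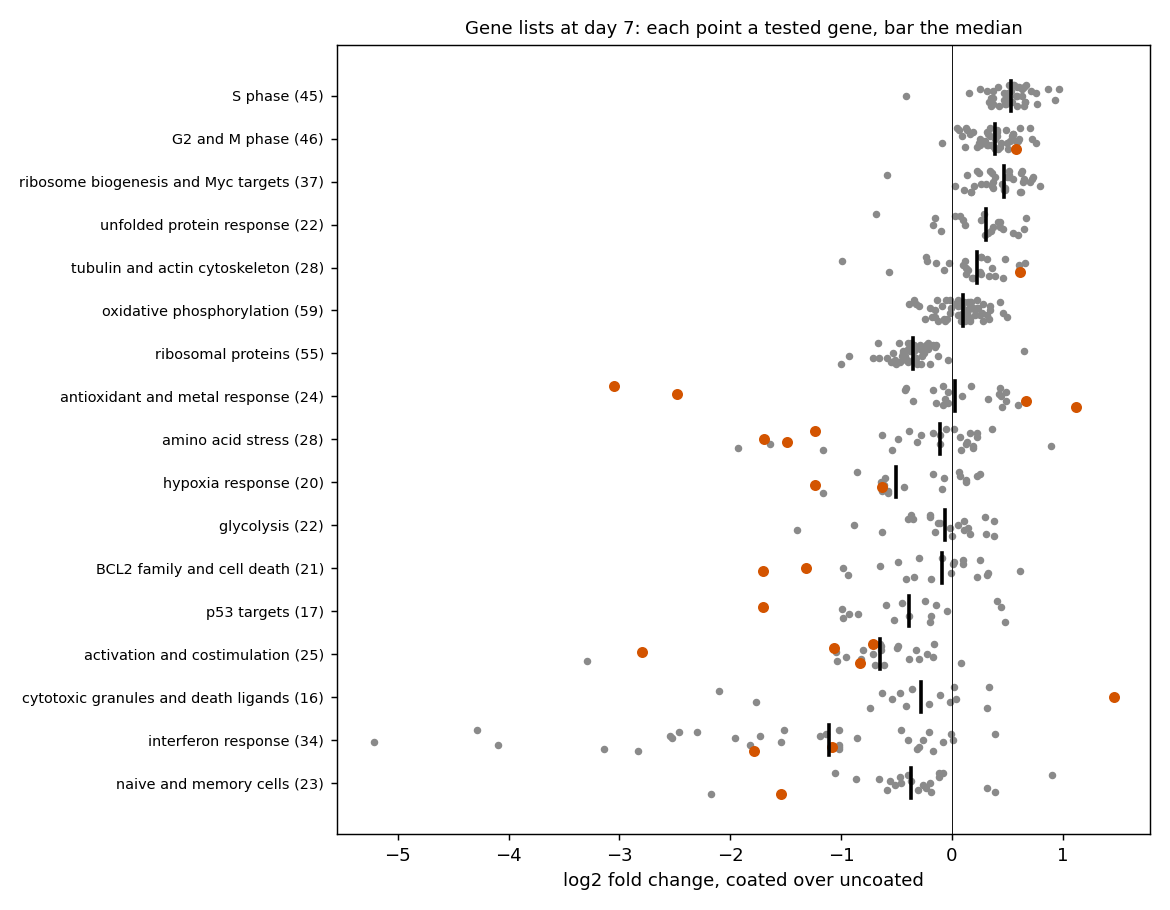
Each point is a tested gene of 1 of 17 lists (number tested in brackets), placed by its log2 fold change of coated over uncoated cells; called genes are orange and the black bar is the list's median. S phase, G2 and M phase and ribosome biogenesis lie right of 0 with medians of 0.53, 0.39 and 0.47, and the interferon and activation lists left of it with -1.11 and -0.65.

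Vps37b, a subunit of the ESCRT-I sorting complex, was at 169, 161, 137 and 148 CPM in coated and 474, 377, 849, 705 and 808 CPM in uncoated libraries, without overlap (log2 -2.06 ± 0.23, adjusted p = 0.0026). Cables1, an adaptor of cyclin-dependent kinases, was at 14.9, 21.6, 25.5 and 8.97 against 69.3, 77.5, 103, 70.1 and 106 CPM (log2 -2.25 ± 0.26, adjusted p = 0.0026). Pik3ip1, an inhibitor of PI3-kinase in T cells, was at 37.7, 54.6, 63 and 52.5 CPM against 116, 122, 407, 415 and 329 CPM. The uncoated libraries lay far apart, M numbers 1 and 2 lying nearest to the coated ones (log2 -2.41 ± 0.47, adjusted p = 0.0483; without uncoated M numbers 3 and 4, -1.89 with an adjusted p of 0.173). Mxd1, an antagonist of Myc, and Hbp1, a transcriptional repressor linked to cell cycle exit, had log2 changes of -1.97 ± 0.38 (adjusted p = 0.0364) and -1.99 ± 0.32 (0.0125).

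Sult2b1, a sulfotransferase of cholesterol, was at 14.2, 35.6, 54.1 and 36.5 CPM on the coating and 162, 159.9, 272, 341 and 378 CPM without it (log2 -2.89 ± 0.42, adjusted p = 0.0193; without uncoated M numbers 3 and 4, -2.75 with an adjusted p of 0.137). Abcg1, an exporter of cholesterol, fell (log2 -2.58 ± 0.47, 4.77 ± 3.22 against 29 ± 13 CPM, adjusted p = 0.028 in edgeR). Of 22 genes of cholesterol synthesis none was called and 10 were positive (median -0.03; unadjusted p under 0.05 in 0 higher and 2 lower, none by DESeq2). Adssl1, an adenylosuccinate synthase, was at 7.12, 8.26, 7.13 and 7.05 CPM against 22, 16.7, 40.9, 40.8 and 40.3 CPM (log2 -2.11 ± 0.31, adjusted p = 0.00626). The actin-severing protein gene Gsn fell (log2 -1.94 ± 0.32, adjusted p = 0.0172).

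Genes of the interferon response were mostly negative, and few passed the test. Of 34 tested, 2 fell, none rose, 32 were negative and the median log2 change was -1.11; 19 were lower at an unadjusted p under 0.05 and 17 by DESeq2. Ifitm2, a membrane protein that blocks virus entry, was at 64.8, 139.7, 192 and 127 CPM against 244, 409.6, 502, 631 and 487 CPM (log2 -1.79 ± 0.34, adjusted p = 0.0399), and Irf9, the DNA-binding subunit of the interferon-activated factor ISGF3, was at 65.5, 64.8, 45.7 and 62.1 against 71.5, 99.2, 149.8, 148 and 160.4 CPM (-1.08 ± 0.23, 0.0399). The list summed to 3351, 3809, 3815 and 3794 CPM on the coating and 4050.5, 5138, 7303, 7450.1 and 13520.1 CPM without it. Coated libraries were alike. Uncoated M number 1 was near them, and uncoated M number 5 was far above all others. Without uncoated M number 5 the median was -0.68, with 1 called gene among 31, and without uncoated M numbers 3 and 4 it was -1.15, with none called among 32 (Ifitm2 at -1.55 with an adjusted p of 0.203). Genes of antigen presentation by MHC class I were not called in 17 tests (4 positive, median -0.16; unadjusted p under 0.05 in 1 higher and 4 lower, 1 and 3 by DESeq2).

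Markers of other cells were compared beside these results. Over 16 myeloid markers, 3 of which were at 0 in all 9 libraries, the summed CPM was 12 to 19.4 on the coating and 30.1 to 91.0 without it. Of the 2 that were tested, Fcer1g, the gamma chain of Fc receptors, fell (2.14, 2.54, 4.16 and 1.28 CPM against 14.5, 11.8, 17.6, 17.9 and 17.5 CPM, log2 -2.60 ± 0.33, adjusted p = 0.00304), and its uncoated libraries were all above its coated ones, M numbers 1, 2 and 5 included (without M numbers 3 and 4, -2.51 with an adjusted p of 0.026). Erythroid and platelet markers summed to 10.7 to 16.9 CPM on the coating and 11.7 to 899.8 CPM without it, MHC class II and dendritic markers to 74.7 to 116 and 72.9 to 583 CPM, and B cell markers, mostly Ighm, to 481 to 582 and 278 to 1428 CPM. Markers of CD4 and regulatory T cells summed to 8.47 to 36.5 CPM on the coating and 21.3 to 56.0 CPM without it. The NK list had 4 of its 10 genes in the deposited counts, and their sum, 437 to 664 and 258 to 465 CPM, was nearly all Eomes. Klrk1 went the other way, at 7.76 to 14.5 CPM on the coating and 13.3 to 47.5 CPM without it. Klrb1c was at 1.27 to 3.78 and 3.07 to 5.90 CPM, and Klrb1b at 0 in all 9 libraries. Mitochondrially encoded RNA summed to 27.7 to 163 and 43.9 to 408 CPM, nuclear and dissociation transcripts to 458 to 514 and 469 to 609 CPM, and CD8 T cell markers to 7064 to 8484 and 7555 to 13125 CPM. The part of these markers in the results was not tested beyond the fits without uncoated M numbers 3 and 4.

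In 4 further lists no gene was called. Of 59 genes of oxidative phosphorylation, 40 were positive (median 0.10), of 21 of fatty acid synthesis and use 13 (0.09), of 21 S100, annexin and galectin genes 10 (-0.01), and of 7 inhibitory receptors 1 (-0.45). None of these was called by edgeR; at an unadjusted p under 0.05 there were 6, 2, 1 and 0 higher and 0, 6, 1 and 3 lower, and by DESeq2 1, 0, 0 and 0 higher and 0, 1, 1 and 2 lower.

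Further genes rose without belonging to a list. Cd163l1, of the scavenger receptor cysteine-rich family, was at 31.3, 27.3, 26.7 and 27.5 CPM on the coating and 10.7, 8.68, 14.5, 10.6 and 8.95 CPM without it, and was called in every fit that left out 1 library (log2 1.40 ± 0.20, adjusted p = 0.00586). Adgrl1, an adhesion receptor of the latrophilin family, rose by 0.97 ± 0.20 (adjusted p = 0.0367), Ifi30, a thiol reductase of lysosomes, by 0.87 ± 0.16 (0.0218), and Rgcc, a regulator of the cell cycle, by 0.81 ± 0.18 (0.0399). Besides Cd163l1, the genes Mt1, Mt2, Vps37b, Bbc3, Cables1, Btg2, Junb and Adssl1 were called in all 9 such fits, among the 55 genes chosen by rule and tested. Of the 41 of these 55 that were called, 11 were also called without uncoated M numbers 3 and 4: these 9 and the genes Asf1b and Rgcc. Each of the 32 besides these 9 lost its call in at least 1 of the fits without a library, and many in most of them. Gzmm, Hells, Birc5, Eomes, Itgb3, Irf9, Il4ra, Ddit4, Atic and Bhlhe40 lost it in 7 of the 9 fits. Asf1b, Ddit3, Abcg1, Ifitm2 and Ifi30 lost it in 6. Of the 9 called genes outside the rule, Zfp36, Eif2ak3, Ier2 and Fcer1g were called in all of these fits and without uncoated M numbers 3 and 4, and Egr2 only in the latter and some of the former.

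Both of the next comparisons use the same day 7 libraries, so they are not independent of each other. The coating effect at day 7 differed from that at day 3 after the same activation. The difference of the 2 effects was called for 376 of 9481 genes (3.97%), 140 higher at day 7 (1.48%) and 236 lower (2.49%). At day 3, 1 of 5 coated and 2 of 3 uncoated libraries had under 100 CPM of Rpl5, and with that set as a covariate 292 differences were called, 252 of the 376 among them. With the M number as a replicate block 83 were called, 12 higher and 71 lower. The count rested on single libraries. It fell to 36, 66 and 62 without uncoated day 3 M numbers 1, 2 and 4, and to 165 and 145 without coated day 3 M numbers 1 and 5. Without coated day 7 M numbers 1, 2 and 5 it was 113, 161 and 86, and without uncoated day 7 M numbers 3, 4 and 5 it was 131, 184 and 154. It was 878 and 863 without uncoated day 7 M numbers 1 and 2. Vps37b had a difference of -3.04 ± 0.40 (adjusted p = 0.00257 in edgeR), with a coating effect of -2.06 at day 7 and 0.96 at day 3. Its day 3 effect was not called on its own (adjusted p = 0.307 in edgeR). At day 3 its level was 154 ± 1.36 CPM without the coating and 302 ± 111 CPM on it, and at day 7 it was 612 ± 197 and 147 ± 15.5 CPM (mean ± SD over the libraries of each group). Cells at day 0 held 2037 ± 276 CPM of it, more than any of these later groups. Bbc3 (-3.14 ± 0.57, adjusted p = 0.0115) and Ddit4 (-3.04 ± 0.58, 0.0147) had day 3 effects of 1.41 and 1.79, neither called on its own. Mt1 was at 28.9 ± 8.22 and 24 ± 5.98 CPM in uncoated and coated cells at day 3, so that both were near the level of coated cells at day 7, 38.6 ± 12.5 CPM, and the uncoated day 7 cells stood above all of them with 216 ± 66.4 CPM (difference -2.21 ± 0.41, adjusted p = 0.0118).

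Gclm had a positive difference, 1.78 ± 0.29 (adjusted p = 0.00568), with 212 ± 47.6 CPM without the coating and 134 ± 29.7 CPM on it at day 3. Among called genes with at least 20 CPM in any group mean, the largest positive differences were those of Rpph1, the RNA subunit of RNase P (3.56), Gclm, the mitochondrial folate carrier Slc25a32 (1.74) and the histone gene H3c1 (1.69), and the most negative ones those of Ccl5 (-3.78), Klhl30 (-3.71), Abcg1 (-3.70) and Sult2b1 (-3.40). Of 45 S phase genes 2 had a called difference, both higher (42 positive, median 0.55). Over all 9481 genes, 47.9% were positive and 1.48% were called higher. The 2 were Pcna, the replication clamp, with 0.83 ± 0.22 (adjusted p = 0.0436 in edgeR) and Rrm2 with 1.08 ± 0.25 (0.0261).

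Of 29 amino acid stress genes tested, 9 had a called difference, all lower at day 7, while 8 of the 29 were positive and the median was -0.22. Over all 9481 genes tested, 2.49% had a difference called lower at day 7 and 1.48% one called higher. The 9 were Atf4, the factor that controls this response, Ddit3, Trib3, Ddit4, Asns, Chac1, Pck2, Slc1a4 and Sars. Asns, asparagine synthetase, had coating effects of -1.64 at day 7 and 0.92 at day 3 (difference -2.59 ± 0.67, adjusted p = 0.0447), and Pck2, the mitochondrial PEP carboxykinase, of -1.16 and 1.63 (difference -2.80 ± 0.41, 0.00257). The day 3 effect of Pck2 was called on its own (adjusted p = 0.0227 in edgeR), while that of Asns was not (0.301). The day 7 effects of Asns and Pck2 were not called. Of 23 glycolytic genes 5 had a called difference, all lower at day 7 (7 of 23 positive, median -0.25). Among them was Slc16a3, a lactate exporter, with effects of -0.89 and 0.90 (difference -1.81 ± 0.28, adjusted p = 0.00366 in edgeR). Its day 7 effect was not called. Of 22 genes of the unfolded protein response 3 differed, all higher at day 7 (18 of 22 positive, median 0.43): the chaperones Hspa5 (0.98 ± 0.27, 0.047), Calr (0.97 ± 0.22, 0.0261) and the disulfide isomerase Pdia6 (0.97 ± 0.25, 0.0385). Of the differences named against day 3, those of Cables1, Gclm, Itgb3, Mt2, Pck2, Slc16a3, Trib3 and Vps37b were called under all 22 alternatives tried. On leaving out 1 library, those of Asns, Atf4, Hspa5, Klhl30 and Rpph1 lost their call in 13 of 17 fits, those of Ccl5, Pcna and Sars in 12, that of Pdia6 in 11, that of Slc25a32 in 10 and that of Chac1 in 9. Those of Ddit3 and Sult2b1 lost it in 8, that of Slc1a4 in 7, those of Calr, H3c1 and Rrm2 in 4, that of Ddit4 in 3, and those of Abcg1, Bbc3 and Mt1 in 1.

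Against DC-activated cells at day 4, the difference of the coating effects was called for 125 of 9671 genes (1.29%). The effect was higher after beads than after DCs in 27 (0.279%) and lower in 98 (1.01%). The number called was 57 without coated day 7 M number 1 and 81 without M number 5. Day, activation and M numbers all differ between these sets, so their parts cannot be told apart. Gzmc, a granzyme with near-identical neighbours, had the most negative difference (-5.30 ± 0.85, adjusted p = 0.00363), with effects of -2.11 after beads (adjusted p = 0.0515, not called) and 3.16 after DCs. Gzmb differed by -3.45 ± 0.53 (adjusted p = 0.00315): after beads its level was 3852 ± 1245 CPM without the coating and 2646 ± 376 CPM on it, and after DCs 139 ± 14.6 and 1044 ± 639 CPM. Both coated and uncoated bead-activated cells at day 7 thus had a higher mean of Gzmb transcript than either DC group. Prdm1 differed by -3.23 ± 0.56 (0.00341), with effects of -1.05 after beads, not called, and 2.18 after DCs, called.

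Mt1 and Mt2 differed by -2.85 ± 0.29 (adjusted p = 1.2e-05) and -3.45 ± 0.37 (5.56e-05). Their effects after DCs were 0.36 and 0.40, both called (adjusted p = 0.0398 and 0.0443 in edgeR). Ifitm1, another interferon-induced membrane protein, had -3.62 and Wnt10b, a secreted Wnt ligand, -4.16. The effects of Ifitm1 were -1.19 after beads, not called, and 2.42 after DCs, called. On the positive side stood Nsg2 (2.74), Gtf2ird1 (1.98), Runx1 (1.96) and Klf3 (1.84), of which Runx1 and Klf3 are transcription factors of lymphocytes. After beads the effects of Nsg2, Runx1 and Klf3 were -0.26, 0.76 and -0.24, none called. After DCs they were -3.02, -1.23 and -2.09, all called. Gtf2ird1 was at 2.15 after beads, called, and at 0.16 after DCs, not called. Rgcc, which rose after beads, had an effect of -0.86 after DCs (difference 1.67 ± 0.26, adjusted p = 0.00134 in edgeR). Mt1, Mt2, Rgcc and Ifitm2 (0.82) were called after DCs with the sign opposite to that after beads. Other genes called after beads were called after DCs with the same sign, among them Bbc3 (-0.66), Irf9 (-0.89), Gclm (0.54) and Asf1b (0.52). Of the 45 S phase genes 13 had a positive difference, with a median of -0.09 (over all 9671 genes, 44.6% were positive). Among 27 naive and memory genes 4 had a called difference, all positive, against 0.279% called positive over all genes. A positive difference can come from a lower level on the coating after DCs and need not be a rise after beads. The differences of Mt1, Mt2, Gzmb, Gzmc, Prdm1, Ccl5, Ifitm1, Ifitm2, Wnt10b, Nsg2, Gtf2ird1 and Rgcc were called under all 23 alternatives tried, and that of Klf3 lost its call in 14 of the 19 fits that left out 1 library.

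**Figure D5:**
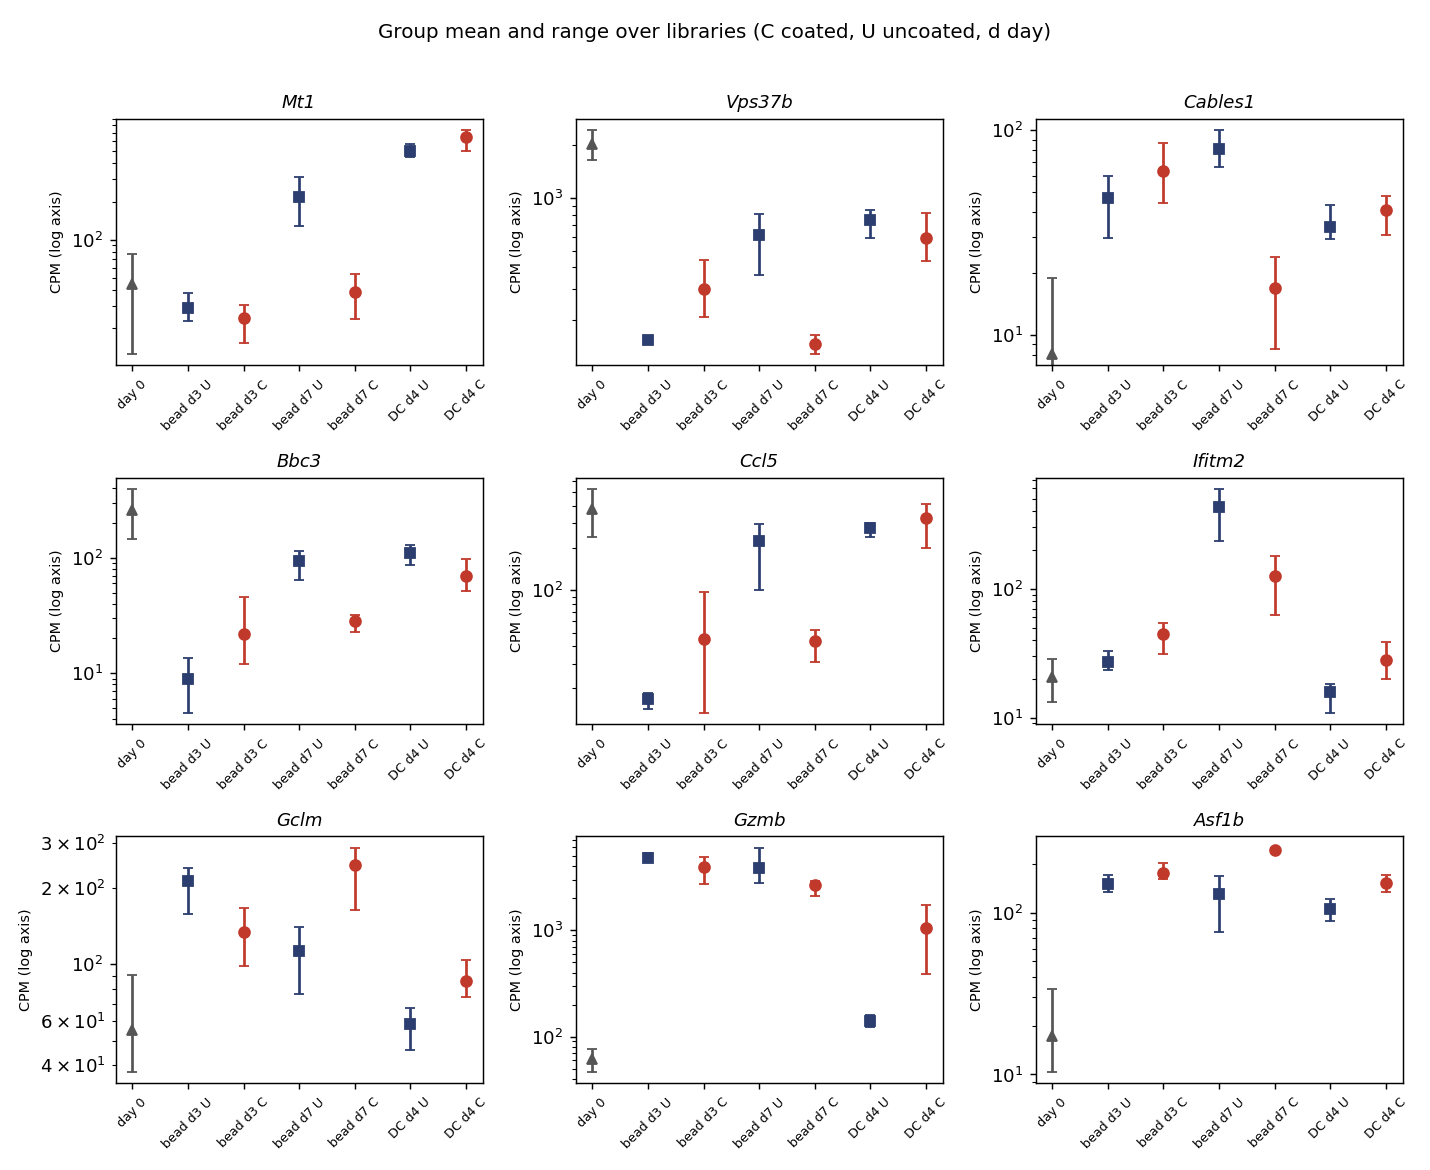
Mean CPM (log axis) and the range over libraries for 9 genes at day 0 (grey), and in uncoated (blue squares) and coated (red circles) cells of bead day 3, bead day 7 and DC day 4. Mt1 in uncoated bead day 7 cells lies above both day 3 groups. The means of Vps37b and Bbc3 change order between days, though neither day 3 effect was called. Gzmb is separated by the coating after DCs with overlapping groups after beads. The lowest day 0 library of Cables1 is at 0 and falls off the log axis.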

How the data were processed

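Bulk MARS-seq of mouse CD8+ T cells was deposited as raw counts per gene. Per the submitters' processing notes, the authors used bcl2fastq, cutadapt, STAR 2.4.2a, HTSeq and DESeq2 with mm10; parameters, and whether reads of 1 molecule were collapsed, are not given in the sources used here. The deposited table of counts holds 14626 genes and 52 libraries, and its lowest maximum count per gene over the libraries is 6. The authors' deposited log2 fold changes and adjusted p-values of the same comparison, from the same table, were used only where named. Totals of the 9 libraries were 1374720 to 2785011 counts, and precision is set by 4 and 5 libraries a group.

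The counts were fitted with edgeR 4.0.16 in R 4.3.3 (filterByExpr with a minimum count of 10 and a total of 15, TMM scaling, robust quasi-likelihood F-test, two-sided, Benjamini-Hochberg adjustment over all genes tested, called under 0.05). The compared groups alone entered each fit, and a difference of 2 coating effects is an interaction contrast over 4 groups. SE is the log2 fold change over the root of F. Alternatives were DESeq2 1.42.0, DESeq2's size factors, no filter, the M number as a block, other sets of libraries, and leaving out each library. Summed and marker CPM use totals over the whole table with the same TMM factors. No library pair was identical among 16 replicate pairs. The steps were tested on simulated data.

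Members, lists and tests were chosen with earlier results of these data known. Genes were named by rule: of called genes with non-overlapping groups and at least 20 CPM in the higher group, the 12 with the largest change each way, up to 2 called genes per list and 17 fixed genes, and up to 4 each way for each difference. One of the fixed genes is not reported here. The genes Zfp36, Eif2ak3, Trib3, Txnrd1, Egr2, Dusp4, Ppp1r15a, Ier2, Fcer1g, Calr, Rrm2, Mcm5, Ccl3, Ccl4, Lta, Egr1, Cdkn1a, Sod2, Gsr, Bcl2 and Mcl1, and those of lists named only for their differences against day 3, lie outside that rule and were chosen after their values were seen. Gene positions are from GENCODE vM21 (GRCm38), promoters from RefSeq (GRCm38.p6).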

Additional observations from a re-analysis of the deposited data

Results flagged for a closer look

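A library stood apart from the others of its group in 18 of 176 groups of values tested for an outlying library (Dixon's criterion); chance flags about 1 in 20 groups. Among genes, the outlying values were 27.3 CPM for Gzmm, 439 CPM for Eomes, 249 CPM for Cd8a and 50.2 CPM for Dusp4 in uncoated M number 2. In uncoated M number 1 they were 6.99 CPM for H4c2, 31.2 CPM for H2bc11 and 595 CPM for Tuba4a, and in uncoated M number 5 189 CPM for Ccl4. In the coated group they were 51.2 CPM for Trip13 in M number 1, 8.26 CPM for Adssl1 and 361 CPM for Birc5 in M number 2, 11.3 CPM for Btg2, 45.7 CPM for Irf9 and 56.4 CPM for Egr1 in M number 3, and 400.4 CPM for Lta in M number 5. Summed levels stood apart for the G2 and M phase list in uncoated M number 4 (4665 CPM), the interferon response in coated M number 1 (3351 CPM) and the CD8 T cell markers in coated M number 5 (7064 CPM).

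The coating effect of several named genes differed between bead day 7 and another set by an interaction test in edgeR with an adjusted p under 0.05. Against bead day 3, the log2 differences were positive for Rpph1 (3.56), Gclm (1.78), Slc25a32 (1.74), H3c1 (1.69), H4c2 (1.63), H2bc11 (1.17), Adgrl1 (1.16), Rrm2 (1.08), Trip13 (1.05), Atic (1.03), Rgcc (0.99), Hspa5 (0.98), Pdia6 (0.97), Calr (0.97), Tuba4a (0.90) and Pcna (0.83). They were negative for Chac1 (-4.31), Ccl5 (-3.78), Klhl30 (-3.71), Abcg1 (-3.70), Sult2b1 (-3.40), Adssl1 (-3.32), Bbc3 (-3.14), Mt2 (-3.09), Ddit4 (-3.04), Vps37b (-3.04), Slc1a4 (-3.01), Itgb3 (-2.93), Pck2 (-2.80), Gsn (-2.66), Hbp1 (-2.65), Cables1 (-2.65), Asns (-2.59), Ifitm2 (-2.51), Ddit3 (-2.45), Mxd1 (-2.42), Mt1 (-2.21), Trib3 (-2.18), Bcl2l11 (-2.12), Slc16a3 (-1.81), Junb (-0.89), Atf4 (-0.83), Il4ra (-0.78), Sars (-0.70) and Tnfrsf18 (-0.69). Against DC day 4, they were positive for Nsg2 (2.74), Gtf2ird1 (1.98), Runx1 (1.96), Klf3 (1.84), Rgcc (1.67) and Adgrl1 (1.10), and negative for Gzmc (-5.30), Wnt10b (-4.16), Ifitm1 (-3.62), Mt2 (-3.45), Gzmb (-3.45), Prdm1 (-3.23), Sult2b1 (-3.22), Mt1 (-2.85), Adssl1 (-2.67), Ifitm2 (-2.62), Ccl5 (-2.59), Cables1 (-2.53), Vps37b (-1.72), Bbc3 (-1.06), Bhlhe40 (-0.96) and Tnfrsf18 (-0.88).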

How the results depend on the processing

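The 155 called genes became 159 with DESeq2's size factors and 159 without a filter on low counts. They became 577 by DESeq2 (225 higher, 352 lower, so 39.0% higher against 20.6%) and 464 with bead day 3 and day 0 in the same fit (38.4% higher), 37 without uncoated M numbers 3 and 4, and 63 with only the M numbers that have both coatings. Among alternatives chosen after seeing the data, 6 genes were called in libraries with at least 100 CPM of Rpl5, 6 in those under 100 CPM, and 257 with the set as covariate. All 155 genes had the same sign in each of these 3, which groups that do not overlap largely fix in advance. Leaving out 1 library gave 22 to 786.

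Same-numbered coated and uncoated libraries deviated together with correlations of -0.18 to 0.49, above 0.1 in 3 of 4 pairs. Libraries of different numbers had correlations of -0.57 to 0.44. These values do not decide whether the M numbers pair the libraries. The labels do not explain the M number, so it was not a block in the main fit. With the M number as a replicate block 268 genes were called, and Mki67 (-0.066) and Tcf7 (0.051) changed sign. The blocked counts of the differences were 83 against bead day 3 (12 higher, 71 lower) and 251 against DC day 4.

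The 376 differences against bead day 3 became 372 with size factors, 286 without a filter, 625 by DESeq2, 292 with the Rpl5 set as covariate, and 36 to 878 on leaving out 1 library. The 125 against DC day 4 became 121, 138, 220 by DESeq2, and 57 to 161.

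Sign changes were otherwise seen in genes that were not called. Without uncoated M numbers 3 and 4 these were Itgb2 (-0.064) and Tcf7 (0.36), and at 100 CPM of Rpl5 or more Prf1 (0.0017), Ifng (0.015) and Tbx21 (-0.024). On leaving out 1 library, Ifng ran from -0.23 to 0.22, Itgb2 from -0.0075 to 0.15, Mki67 from -0.57 to 0.62, Prf1 from -0.21 to 0.15 and Tbx21 from -0.029 to 0.50. The cause was not tested. Depth limits genes of few counts, such as Il7r.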
